A study of Mus musculus with 18 samples.

Results

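Cartilage from operated mouse knees was compared between 4 and 2 weeks after surgery. The surgery was destabilisation of the medial meniscus (DMM), a model of post-traumatic osteoarthritis in which the ligament that anchors the medial meniscus to the tibia is cut. The comparison used every array that GEO labels as DMM-operated cartilage at these times, 3 arrays of 4 weeks and 3 of 2 weeks, 6 of the 18 arrays of the series. All mice were C57BL/6J males operated on at 10 weeks of age. They were thus 14 weeks old in the 4-week group and 12 weeks old in the 2-week group, and time after surgery and age cannot be told apart. Each array held RNA of the micro-dissected medial tibial plateau of the right knee, pooled from 8 mice, so that a p-value measures the spread between pools. The unoperated left knees of the same mice, here called contralateral and likewise 3 arrays of 4 weeks and 3 of 2 weeks, are given as context only. No sham-operated mice were included, and which DMM and contralateral pools share their mice is not stated. The arrays were Illumina mouse bead arrays read after the RNA was amplified, and all levels below are the deposited quantile-normalised log2 intensities, so a difference of 1 is a doubling. No detection call was used, and near the low end of the scale (an array median of 6.55 to 6.56 and a lowest value of 4.62) signal and background cannot be told apart.

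Articular cartilage is a thin, vessel-free tissue in which chondrocytes keep up a matrix of type II collagen and aggrecan, and it lies on a bone plate whose marrow makes blood cells. After DMM the altered load on the medial plateau sets off matrix remodelling, in which proteinases such as the MMP and ADAMTS enzymes cut collagen and aggrecan while cells lay down new, often fibrous, matrix. Genes of a thin dissected sheet of this tissue can therefore come from chondrocytes or from bone, marrow, synovium, tendon or muscle that was taken with it. Markers of all these tissues were read beside the cartilage genes.

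The label was checked first on the genes that define chondrocytes. *Comp*, which encodes a pentameric protein of the cartilage matrix, read 13.49, 13.33 and 13.33 in the 4-week DMM arrays, against 13.17, 13.33 and 13.17 in the 2-week DMM arrays. *Col2a1*, the gene of type II collagen, read 12.56, 12.45 and 12.56 at 4 weeks, against 12.91, 12.42 and 12.61 at 2 weeks, and *Sox9*, which encodes the master transcription factor of chondrocytes, read 12.16, 11.70 and 11.68 at 4 weeks, against 11.94, 11.95 and 11.85 at 2 weeks. *Acan*, the gene of aggrecan, read 11.33, 11.15 and 11.01 at 4 weeks, against 11.53, 11.21 and 11.24 at 2 weeks. Against array medians of 6.55 to 6.56 these are among the bright genes of every array, and the weeks overlapped for each of them. None was called, with log2 differences of 0.16 for *Comp* (adjusted p = 0.592), -0.13 for *Col2a1* (adjusted p = 0.736), -0.06 for *Sox9* (adjusted p = 0.885), -0.16 for *Acan* (adjusted p = 0.634) and -0.16 for *Hapln1*, the gene of the link protein that ties aggrecan to hyaluronan (adjusted p = 0.688). The other *Col2a1* probes, both at 0.39, were not called either.

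With limma and Benjamini-Hochberg adjusted p-values under 0.05 as the threshold, 585 of 22999 probes differed between 4 and 2 weeks, or 2.54% of those tested. Of these, 412 were higher at 4 weeks and 173 were lower, and 75 had no single gene assigned. The paper also compared operated cartilage at these weeks, on a smaller selection of probes, and reported differentially expressed probes. Taking the brightest probe of each gene, 263 of the 11499 genes measured were higher (2.29%) and 95 were lower (0.826%). The increases were larger than the decreases. Of the genes higher at 4 weeks 122 differed by more than 1 on the log2 scale and 24 by more than 2, while 17 of those lower differed by more than 1 and 0 by more than 2. In 584 of the 585 called probes the 3 arrays of one week all lay on the same side of the 3 arrays of the other. The choice of probes by their p-value largely fixes this, so it adds no support to the calls. A probe's residual SD within the weeks had a median of 0.159, and the median log2 difference over all genes was -0.015. The lower calls fell most when single arrays were left out. They were 173 probes in all arrays, against 48 without 2-week DMM replicate 2 and 51 without 2-week DMM replicate 3, where 286 and 262 probes were higher. Where the call of a gene ended when 1 array was left out, that array is named below with the adjusted p without it in parentheses. A fit of all 18 arrays, which shares 1 estimate of spread over all groups of the series, called 203 probes, 178 higher and 25 lower, and ended the calls of 73 of the 118 named genes that had passed.

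**Figure D1:**
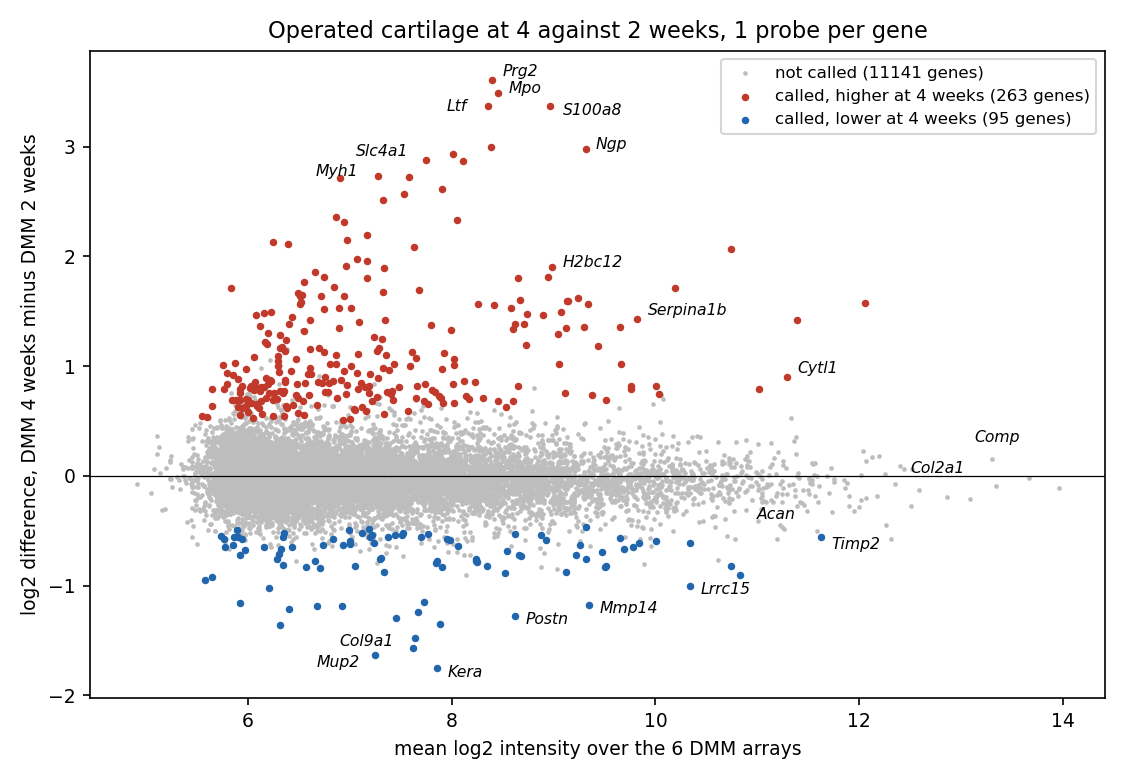
Each point is 1 gene at its brightest probe, with the mean log2 intensity over the 6 DMM arrays on the horizontal axis and the log2 difference, DMM 4 weeks minus DMM 2 weeks, on the vertical axis. The 263 genes called higher at 4 weeks (red) reach 3.61 (*Prg2*), the 95 called lower (blue) reach -1.75 (*Kera*), and the bright chondrocyte genes *Comp*, *Col2a1* and *Acan* lie near 0 among the genes not called (grey).

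Genes of granulocytes led the increases. These are the blood leukocytes that carry stores of enzymes and toxic proteins in granules and that mature in bone marrow. *Mpo*, the gene of myeloperoxidase, which makes hypochlorous acid, read 10.36, 10.08 and 10.16 in the 4-week DMM arrays, against 7.21, 6.25 and 6.66 in the 2-week DMM arrays (log2 difference 3.49, SE 0.20, adjusted p = 1.77e-06). *Prg2*, the gene of eosinophil major basic protein, read 10.02, 10.73 and 9.84 at 4 weeks, against 6.99, 6.18 and 6.60 at 2 weeks (log2 difference 3.61, SE 0.23, adjusted p = 3.4e-06). *S100a8*, which encodes a subunit of the calcium-binding and zinc-binding protein calprotectin, read 10.42, 10.75 and 10.78 at 4 weeks, against 7.91, 6.56 and 7.38 at 2 weeks (log2 difference 3.37, SE 0.26, adjusted p = 1.43e-05). In each of these genes the lowest 4-week array lay more than 2 log2 units above the highest 2-week array, and the 2-week arrays of *Mpo* were spread around the median of all genes. In the fit of all 18 arrays *Prg2* and *S100a8* kept their calls and *Mpo* did not (adjusted p = 0.0782).

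Further granule genes moved the same way. *Ltf*, the gene of lactoferrin, an iron-binding protein of secondary granules, read 10.01, 9.86 and 10.27 at 4 weeks, against 7.15, 6.14 and 6.74 at 2 weeks (log2 difference 3.37, SE 0.21, adjusted p = 3.4e-06). *Camp*, which encodes the antimicrobial peptide cathelicidin, read 9.84, 9.52 and 10.30 at 4 weeks, against 7.47, 6.37 and 6.83 at 2 weeks (log2 difference 3.00, SE 0.25, adjusted p = 2.33e-05). *Ngp*, a granule gene of maturing neutrophils, read 10.58, 10.72 and 11.10 at 4 weeks, against 8.65, 6.92 and 7.90 at 2 weeks (log2 difference 2.98, SE 0.32, adjusted p = 0.000177). For all of them 2-week DMM replicate 2 was the lowest array and 2-week DMM replicate 1 the highest of its week. That the weeks did not overlap was a condition of their choice. *Ngp* was not called in the fit of all 18 arrays (adjusted p = 0.066) or when the variances were fitted robustly with an intensity trend (adjusted p = 0.0725). *Chil3* and *Chil4*, near-identical genes of chitinase-like proteins that their probes may not tell apart, were higher by 2.93 (adjusted p = 2.33e-05) and 2.57 (adjusted p = 1.77e-06). *Lcn2*, the gene of the siderophore-binding lipocalin 2, rose by 2.51 (adjusted p = 1.53e-05). *Wfdc21*, which encodes a small secreted protein, rose by 2.62 (adjusted p = 1.15e-06) and *Retnlg*, a resistin-like gene of neutrophils, by 2.71 (adjusted p = 2.86e-05).

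Some of the proteinases stored in granules were higher as well. *Ctsg*, the gene of the serine proteinase cathepsin G, read 7.44, 7.97 and 6.92 at 4 weeks, against 5.33, 5.10 and 5.57 at 2 weeks (log2 difference 2.11, SE 0.22, adjusted p = 0.000143). *Mmp8*, which encodes neutrophil collagenase, read 7.25, 7.24 and 6.43 at 4 weeks, against 5.22, 5.59 and 5.63 at 2 weeks (log2 difference 1.49, SE 0.20, adjusted p = 0.00125). *Elane*, the gene of neutrophil elastase, named after its values were seen, read 7.46, 7.51 and 6.96 at 4 weeks, against 5.87, 5.59 and 5.71 at 2 weeks (log2 difference 1.59, SE 0.16, adjusted p = 8.72e-05). All their 2-week values were below 6, under the median of the arrays, and *Elane* was not called in the fit of all 18 arrays (adjusted p = 0.0832). *Prtn3*, the gene of the granule proteinase 3, was not called (0.64, adjusted p = 0.0807). *Mmp9*, the gelatinase of mature neutrophils, was not called at 0.13, nor were *Itgam* at -0.00 and *Csf3r* at 0.06, the genes of an integrin and a cytokine receptor of their surface.

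Of 29 measured markers of neutrophils and their precursors, 21 were higher at 4 weeks (72.4%, against 2.29% of all genes) and 0 were lower. Their median log2 difference was 1.59, against -0.015 over all genes. The mean level of this list was 8.29, 8.30 and 8.29 in the 4-week DMM arrays, against 6.80, 6.38 and 6.67 in the 2-week DMM arrays. Between 20 and 22 of the 29 were higher when any array was left out, and 16 in a fit of all 18 arrays. Of 9 markers of eosinophils, basophils and mast cells 6 were higher (66.7%, against 2.29% of all genes), with a median of 1.01. *Epx*, the gene of eosinophil peroxidase, read 7.92, 8.66 and 7.56 at 4 weeks, against 5.83, 5.82 and 6.02 at 2 weeks (log2 difference 2.15, SE 0.22, adjusted p = 0.00012). *Hdc*, which encodes the enzyme that makes histamine, was higher by 2.87 (adjusted p = 4.01e-06), while its dimmer probe was not called (0.60, adjusted p = 0.086). The mast cell genes *Cpa3* (0.25), *Tpsab1* (0.15) and *Kit* (-0.06) were not called. In bulk cartilage, more cells of a type and more RNA per cell cannot be told apart.

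In the unoperated knees granule genes were also higher at 4 weeks. *Mpo* read 8.96, 8.65 and 9.22 at 4 weeks and 7.44, 7.41 and 7.48 at 2 weeks in contralateral cartilage (log2 difference 1.50, adjusted p = 0.00658). *Prg2* read 9.59, 8.87 and 9.66 at 4 weeks and 7.48, 7.33 and 7.48 at 2 weeks (1.94, adjusted p = 0.00617). *S100a8* read 10.19, 9.11 and 9.67 at 4 weeks and 8.30, 8.36 and 7.53 at 2 weeks and was not past the threshold (1.60, adjusted p = 0.0657). The 4-week contralateral arrays of *Mpo* and *Ltf* lay between those of the DMM weeks. Of the 29 neutrophil markers 6 were called there, with a median of 0.90, against 21 of all 11499 genes. No contralateral probe was called without 4-week contralateral replicate 1, and only 1 was in the fit of all 18 arrays. The paper found no gene expression difference among its control knees over time, in pairwise comparisons that need not have used the same probes. Whether the change was larger in the operated knee was tested as the difference of both differences in a fit of all 18 arrays. With limma 0 of 22999 probes passed (0%), where 1250 had an unadjusted p under 0.05 and the lowest adjusted value was 0.813. For no gene was the change in DMM cartilage shown to differ from that in contralateral cartilage.

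Red cell genes were also higher at 4 weeks, and a few platelet genes with them. *Slc4a1*, which encodes band 3, the anion exchanger of the red cell membrane, read 9.44, 8.83 and 9.29 in the 4-week DMM arrays, against 6.65, 5.90 and 6.39 in the 2-week DMM arrays (log2 difference 2.88, SE 0.20, adjusted p = 5.06e-06). *Alas2*, the gene of the first enzyme of haem synthesis in red cell precursors, read 8.24, 7.74 and 8.22 at 4 weeks, against 6.35, 6.12 and 6.34 at 2 weeks (log2 difference 1.80, SE 0.15, adjusted p = 2.33e-05). *Hbb-b2*, a beta-globin gene, read 9.93, 9.77 and 9.86 at 4 weeks, against 8.12, 7.82 and 8.18 at 2 weeks (log2 difference 1.81, SE 0.13, adjusted p = 8.17e-06). Every 4-week DMM array lay above every 2-week DMM array for these genes, which their choice as called genes largely fixes. The alpha-globin *Hba-a1*, named after its values were seen, read 11.17, 10.94 and 11.03 at 4 weeks, against 9.47, 8.82 and 9.72 at 2 weeks (log2 difference 1.71, SE 0.19, adjusted p = 0.000254). Globin genes are near-identical copies, whose probes need not measure separate transcripts. Of 17 measured erythroid markers 9 were higher (52.9%, against 2.29% of all genes) and 0 lower, with a median of 0.98, and the smallest difference of the 17 was 0.32. Their count was 7 without 2-week DMM replicate 3 and 6 in the fit of all 18 arrays. *Car2*, the gene of carbonic anhydrase II, which red cells and osteoclasts share, was higher by 1.57 (adjusted p = 9.6e-05). *Ppbp*, the gene of a platelet chemokine, read 8.80, 8.51 and 9.51 at 4 weeks, against 7.35, 5.65 and 5.64 at 2 weeks (log2 difference 2.72, SE 0.38, adjusted p = 0.00148), with 2-week DMM replicate 1 well above its group. *Gp5*, which encodes a platelet membrane glycoprotein, rose by 1.67 (adjusted p = 0.00377). Of 12 megakaryocyte and platelet markers 3 were higher (25%, against 2.29% of all genes), and *Pf4*, a platelet chemokine, was not called at 0.32. The calls of *Ppbp* and *Gp5* ended in the fit of all 18 arrays (adjusted p = 0.11 and 0.0544), and that of *Ppbp* when the variances were fitted robustly with an intensity trend (adjusted p = 0.144). In contralateral cartilage the erythroid median was 0.26 and 0 of the 17 were called. There 2-week contralateral replicate 2 had *Slc4a1* at 7.68 beside 6.84 and 6.92 in the other arrays of its group.

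Of the other leukocytes, macrophage markers had a median of 0.01, with 1 of 22 higher and 1 lower (4.55% each, against 2.29% and 0.826% of all genes). *Tyrobp*, which encodes a signalling adaptor of myeloid cells, was higher (0.79, adjusted p = 0.0105), and *Gpnmb*, a glycoprotein gene of macrophages and osteoclasts, was lower (-0.61, adjusted p = 0.0133). The dimmest *Gpnmb* probe was not called (-0.19, adjusted p = 0.652). The macrophage receptors *Csf1r* (-0.18) and *Adgre1* (-0.21) were not called. Among 14 B cell and plasma cell markers 3 were higher (21.4%, against 2.29% of all genes). *Pou2af1*, the gene of a B cell transcription coactivator, read 7.56, 7.55 and 9.39 at 4 weeks, against 6.77, 6.12 and 6.56 at 2 weeks (log2 difference 1.68, SE 0.38, adjusted p = 0.0377). Here 4-week DMM replicate 3 alone was above 9, and without 2-week DMM replicate 1, 2 or 3 the call of *Pou2af1* ended (adjusted p = 0.0816, 0.158 and 0.132). *Tyrobp* was not called without 2-week DMM replicate 1 (adjusted p = 0.0559), nor *Gpnmb* without 4-week DMM replicate 1 (0.0502) or without 2-week DMM replicate 2 (0.0587) or 3 (0.0827).

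**Figure D2:**
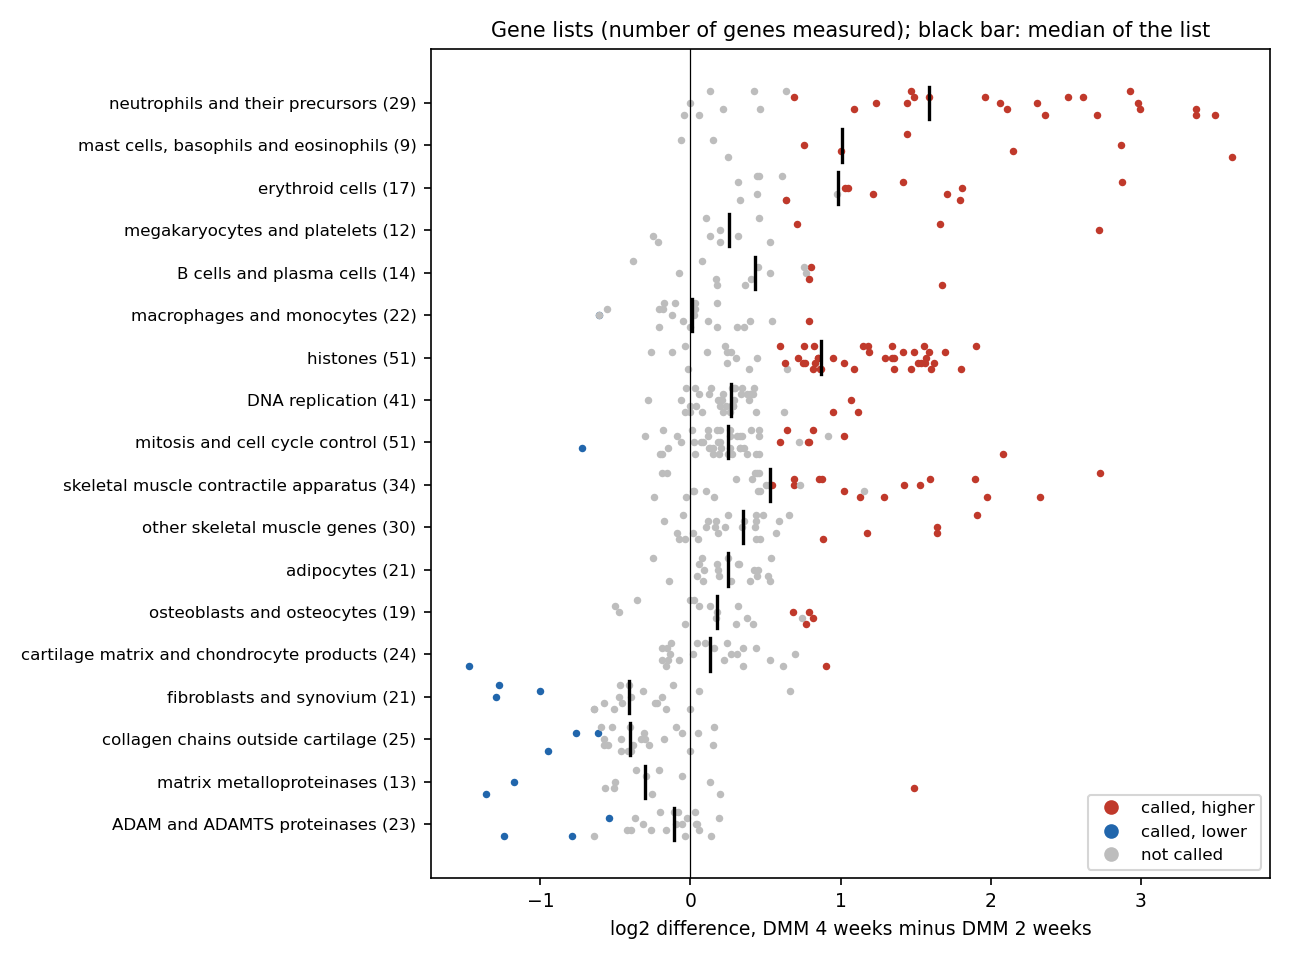
Log2 differences, DMM 4 weeks minus DMM 2 weeks, of the measured genes (1 point each, at the brightest probe) of 18 gene lists, with the number of genes in parentheses and a black bar at the list's median. Neutrophil markers (median 1.59), erythroid markers (0.98) and histones (0.87) lie to the right of 0, while markers of fibroblasts and synovium (-0.41) and collagens outside cartilage (-0.40) lie to the left.

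Histone genes formed the most numerous group. Histones package DNA into nucleosomes, and most of their genes sit in dense clusters and are transcribed while DNA is copied in dividing cells. *H2bc12*, an H2B gene, read 9.82, 9.73 and 10.25 in the 4-week DMM arrays, against 8.25, 7.84 and 8.01 in the 2-week DMM arrays (log2 difference 1.90, SE 0.16, adjusted p = 2.33e-05). *H3c6*, an H3 gene, read 9.28, 9.48 and 9.89 at 4 weeks, against 7.74, 7.80 and 7.71 at 2 weeks (log2 difference 1.80, SE 0.15, adjusted p = 2.33e-05). *H1f5*, which encodes a linker histone, read 8.60, 8.23 and 8.74 at 4 weeks, against 6.83, 6.84 and 6.82 at 2 weeks (log2 difference 1.69, SE 0.14, adjusted p = 2.33e-05). The 2-week arrays of *H1f5* lay within 0.02 of each other, and every 4-week array of these genes was more than 1 above the 2-week arrays. Of 51 histone genes measured 38 were higher at 4 weeks (74.5%, against 2.29% of all genes) and 0 were lower, with a median of 0.87. Of the 46 genes that lie in histone clusters 37 were higher, 32 of 38 on chromosome 13 and 5 of 8 on chromosome 3, against 1 of 5 outside the clusters. That gene was *H2ax*, which encodes the variant H2A.X (0.76), while the replacement histones *H3f3a* (0.11) and *H3f3b* (-0.03), which are made independently of DNA copying, were not called. By class, 9 of 12 H2B, 12 of 15 H2A, 7 of 10 H3, 8 of 10 H4 and 2 of 4 H1 genes were higher. Their coding sequences are nearly alike, so that the probes need not measure separate genes. Without any one array 30 to 38 of the 51 were higher, and 29 in the fit of all 18 arrays.

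The bases in front of the histone genes are shown because these genes moved together and because clustered histone promoters share known elements. Each run is the 150 bases before the transcription start, 5′ to 3′ on the gene's own strand, from RefSeq on the mouse build GRCm38.p6, for the 4 histone genes with the largest increases that have a single start in that table. Capitals mark matches on either strand to 8 motifs, in which N is any base. These were the TATA box (TATAAA), the CCAAT box (spelled as named), the octamer of H2B promoters (ATTTGCAT) and the motifs of the C/EBP factors (TTGCNNAA), of PU.1 (GAGGAAG), of GATA factors (AGATAA), of KLF factors (CCACACCC) and of AP-1 (TGANTCA). Matches can overlap or touch and then form 1 longer run of capitals, as the octamer and the C/EBP motif do before *H2bc14*. The 4 runs lie at chr13:22035671-22035820, + strand, chr13:23562386-23562535, - strand, chr13:21780626-21780775, - strand and chr13:21721894-21722043, + strand.
*H2bc12*: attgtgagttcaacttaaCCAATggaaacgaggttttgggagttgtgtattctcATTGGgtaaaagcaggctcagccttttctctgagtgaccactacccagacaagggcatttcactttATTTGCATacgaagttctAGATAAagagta
*H3c6*: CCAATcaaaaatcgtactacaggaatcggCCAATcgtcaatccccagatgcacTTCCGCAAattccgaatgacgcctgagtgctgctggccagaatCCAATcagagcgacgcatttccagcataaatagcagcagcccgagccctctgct
*H1f5*: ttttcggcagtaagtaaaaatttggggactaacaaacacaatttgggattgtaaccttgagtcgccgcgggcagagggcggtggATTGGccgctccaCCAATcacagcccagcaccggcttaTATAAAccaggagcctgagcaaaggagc
*H2bc14*: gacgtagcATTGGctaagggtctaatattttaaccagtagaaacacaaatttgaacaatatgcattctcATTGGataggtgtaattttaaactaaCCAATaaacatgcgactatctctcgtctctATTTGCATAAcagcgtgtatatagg
Each of the 4 held CCAAT more than once in these 150 bases, and the 2 H2B genes held the octamer within 30 bases of the start. Over the 250 bases before the start, CCAAT stood in 83.3% of 36 promoters of 35 of the 38 called histone genes, against 33.8% of all 32851 promoters in the table. The octamer stood in 22.2% of them against 1.6%, and TATAAA in 44.4% against 12.4%. A match describes the letters only, and no binding was measured. Histone genes that were not called were not counted apart, so whether these shares go with the change at 4 weeks was not tested.

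The same view is given for the granule and red cell genes, as the next groups that moved together. The granule runs lie at chr11:87793634-87793783, + strand (*Mpo*), chr9:111019142-111019291, + strand (*Ltf*), chr3:90668921-90669070, + strand (*S100a8*), chr9:109849457-109849606, - strand (*Camp*) and chr9:110419658-110419807, + strand (*Ngp*). The red cell runs lie at chrX:150547267-150547416, + strand (*Alas2*), chr11:32283522-32283671, + strand (*Hba-a1*) and chr7:103813924-103814073, - strand (*Hbb-bt*).
*Mpo*: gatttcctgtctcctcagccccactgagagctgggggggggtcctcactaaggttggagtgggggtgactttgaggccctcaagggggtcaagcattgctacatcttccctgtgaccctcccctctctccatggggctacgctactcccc
*Ltf*: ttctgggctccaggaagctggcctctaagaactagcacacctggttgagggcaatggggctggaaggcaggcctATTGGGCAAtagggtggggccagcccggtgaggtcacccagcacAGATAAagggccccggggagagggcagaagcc
*S100a8*: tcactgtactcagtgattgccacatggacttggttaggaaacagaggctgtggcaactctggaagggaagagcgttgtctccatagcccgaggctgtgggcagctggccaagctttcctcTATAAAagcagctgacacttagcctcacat
*Camp*: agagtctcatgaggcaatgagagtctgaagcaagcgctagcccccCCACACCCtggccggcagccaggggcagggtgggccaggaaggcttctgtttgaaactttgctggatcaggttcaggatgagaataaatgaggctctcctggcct
*Ngp*: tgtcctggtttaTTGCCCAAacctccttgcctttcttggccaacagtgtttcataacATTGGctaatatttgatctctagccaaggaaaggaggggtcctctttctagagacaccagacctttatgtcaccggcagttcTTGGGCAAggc
*Alas2*: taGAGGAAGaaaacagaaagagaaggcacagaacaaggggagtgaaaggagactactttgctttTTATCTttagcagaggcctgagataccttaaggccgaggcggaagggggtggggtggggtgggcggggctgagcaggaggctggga
*Hba-a1*: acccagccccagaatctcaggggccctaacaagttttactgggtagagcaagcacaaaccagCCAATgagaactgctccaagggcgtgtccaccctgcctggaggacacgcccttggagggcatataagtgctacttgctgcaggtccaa
*Hbb-bt*: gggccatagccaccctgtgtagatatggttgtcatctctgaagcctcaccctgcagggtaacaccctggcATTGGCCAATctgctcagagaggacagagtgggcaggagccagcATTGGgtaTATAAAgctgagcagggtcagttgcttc
These runs had less in common than those of the histones, and that of *Mpo* held none of the 8 motifs. TTGCNNAA stood before *Ltf*, where it overlaps CCAAT, and before *Ngp*. AGATAA stood before *Ltf* and *Alas2*, TATAAA before *S100a8* and *Hbb-bt*, and CCAAT before both globin genes, *Ltf* and *Ngp*. Over 250 bases, 36.8% of 19 promoters of the called neutrophil markers held TTGCNNAA and 36.8% held GAGGAAG, against 9.56% and 10.6% of all promoters. These motifs were not limited to that group, as TTGCNNAA stood in 30.6% of the called histone promoters and GAGGAAG in 2 of 5 erythroid ones. Of the called erythroid markers 5 promoters were in the table, of which 2 held AGATAA, as did 26.3% of the neutrophil promoters and 9.99% of all promoters.

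Some other genes of the cell cycle were higher. *E2f2*, which encodes a transcription factor of the entry into DNA synthesis, read 8.64, 8.41 and 8.97 at 4 weeks, against 6.20, 6.76 and 6.80 at 2 weeks (log2 difference 2.09, SE 0.18, adjusted p = 2.93e-05). Its dimmest probe was not called (0.23, adjusted p = 0.554). *Rrm2*, the gene of the small subunit of ribonucleotide reductase, which makes the building blocks of DNA, read 8.51, 8.21 and 8.72 at 4 weeks, against 7.45, 7.26 and 7.38 at 2 weeks (log2 difference 1.12, SE 0.14, adjusted p = 0.00073). *Plk1*, a kinase of mitosis, read 7.46, 6.94 and 7.72 at 4 weeks, against 6.50, 6.34 and 6.21 at 2 weeks (log2 difference 1.02, SE 0.18, adjusted p = 0.00715). In all, 3 of 41 DNA replication genes (7.32%, median 0.27) and 7 of 51 genes of mitosis and cell cycle control (13.7%, median 0.25) were higher, against 2.29% of all genes. Differences above 0 were found for 35 of the 41 and 43 of the 51. *Mcm5*, a subunit of the replicative helicase, was among them (1.07, adjusted p = 0.0133), whereas *Pcna* (0.28), the sliding clamp of DNA polymerase, *Top2a* (0.20) and *Cdk1* (0.03) were not called. *Cdkn1c*, which encodes the cell cycle inhibitor p57, was lower at 8.29, 8.51 and 8.11 at 4 weeks, against 9.14, 8.80 and 9.12 at 2 weeks (log2 difference -0.72, SE 0.14, adjusted p = 0.0178). The call of *Plk1* ended without 2-week DMM replicate 3 (0.0539). That of *Mcm5* ended without 2-week DMM replicate 1 (0.0618) or 2 (0.0699). That of *Cdkn1c* ended without 4-week DMM replicate 1 (0.0563) or 3 (0.0599) or without 2-week DMM replicate 1 (0.0822) or 3 (0.104). *Myb*, the gene of a transcription factor of blood progenitors, and *Nup210*, which encodes a nuclear pore protein, both named after their values were seen, rose by 1.86 (adjusted p = 3.65e-05) and 2.13 (adjusted p = 2.05e-05). The neutrophil and erythroid lists were higher in the same 3 arrays, as given above, and their part in the histone and cell cycle results was not tested.

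**Figure D3:**
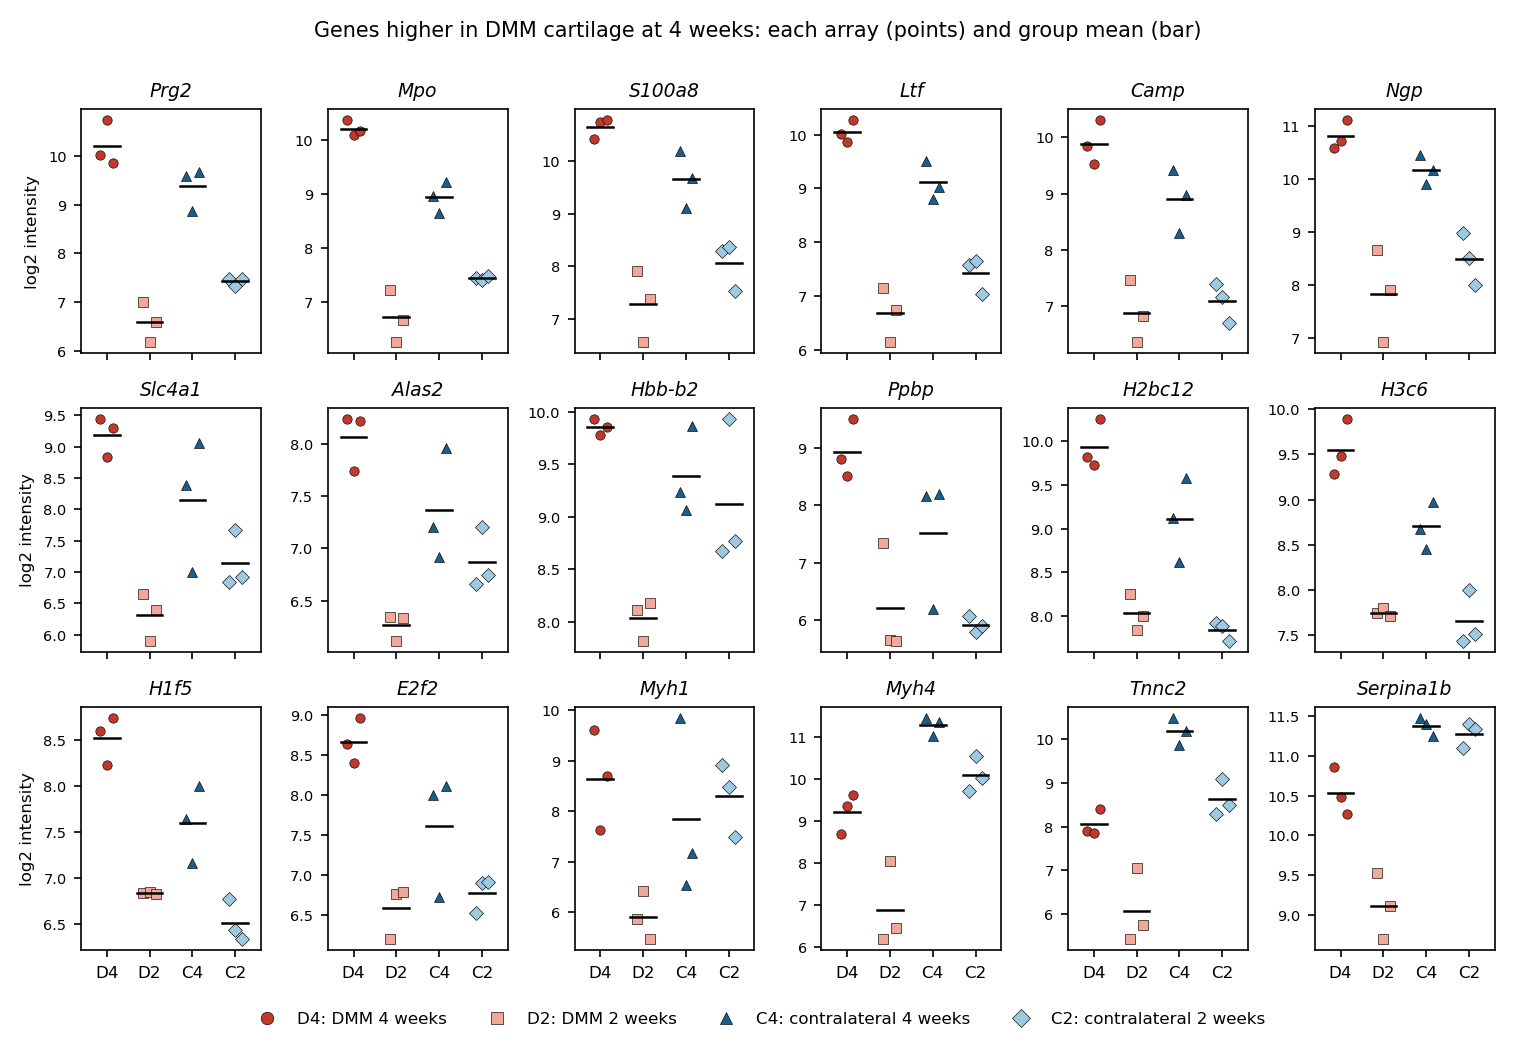
Log2 intensities of 18 genes that were higher in DMM cartilage at 4 weeks, in the 3 arrays of DMM 4 weeks (D4), DMM 2 weeks (D2), contralateral 4 weeks (C4) and contralateral 2 weeks (C2), with a bar at each group mean and its own vertical axis for each gene. The D4 arrays stand above the D2 arrays in every panel, which the choice of called genes largely fixes. For *Myh4* and *Serpina1b* both DMM groups lie below the contralateral arrays.

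Skeletal muscle genes were among those higher at 4 weeks in operated and in unoperated knees. *Myh4*, which encodes a fast myosin heavy chain, read 8.68, 9.35 and 9.62 in the 4-week DMM arrays, against 6.18, 8.04 and 6.45 in the 2-week DMM arrays (log2 difference 2.33, SE 0.38, adjusted p = 0.00502). *Tnnc2*, the gene of fast troponin C, read 7.90, 7.86 and 8.40 at 4 weeks, against 5.42, 7.06 and 5.75 at 2 weeks (log2 difference 1.98, SE 0.32, adjusted p = 0.00478). *Pvalb*, the gene of the calcium buffer of fast fibres, read 7.86, 7.58 and 7.84 at 4 weeks, against 5.60, 6.95 and 5.81 at 2 weeks (log2 difference 1.64, SE 0.27, adjusted p = 0.00496). In all of them 2-week DMM replicate 2 was at least 1 above the lowest array of its group. Of 34 genes of the contractile apparatus 15 were higher (44.1%) and 0 lower (median 0.53), and of 30 other muscle genes 5 were higher (16.7%), against 2.29% of all genes. *Pgam2*, which encodes a muscle enzyme of glycolysis, read 8.09, 7.60 and 8.07 at 4 weeks, against 5.34, 6.73 and 5.95 at 2 weeks (log2 difference 1.91, SE 0.27, adjusted p = 0.00164). It was not called in a fit of all 18 arrays (adjusted p = 0.066). In contralateral cartilage *Tnnc2* read 10.48, 9.87 and 10.18 at 4 weeks and 8.30, 9.08 and 8.49 at 2 weeks (log2 difference 1.55, adjusted p = 0.027). There 9 of the 34 contractile genes were called (median 0.96), against 21 of all 11499 genes. *Myh1*, another fast myosin gene, had the largest difference of the contractile genes in DMM cartilage, at 9.60, 7.63 and 8.69 at 4 weeks, against 5.85, 6.42 and 5.46 at 2 weeks (log2 difference 2.73, SE 0.38, adjusted p = 0.00138), with its other probe at 0.68 (adjusted p = 0.349). In contralateral cartilage *Myh1* stood at -0.44 and was not called (adjusted p = 0.92). In a fit of all 18 arrays 1 of the 34 contractile genes was called, and *Myh4*, *Tnnc2*, *Pvalb* and *Myh1* were not (adjusted p = 0.0801, 0.196, 0.305 and 0.129). The count was 10 without 2-week DMM replicate 1 or 3, and 10 when the variances were fitted robustly with an intensity trend, where these 4 genes were not called (adjusted p = 0.199, 0.144, 0.0641 and 0.14).

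Some genes of inflammatory signalling were higher. *Cxcr2*, the chemokine receptor through which neutrophils are drawn out of marrow and into tissue, read 7.16, 7.09 and 6.71 in the 4-week DMM arrays, against 5.83, 5.73 and 5.69 in the 2-week DMM arrays (log2 difference 1.24, SE 0.14, adjusted p = 0.000253). *Il1r2*, which encodes the decoy receptor of interleukin 1, was higher by 0.84 (adjusted p = 0.00274), and *Alox5ap*, whose product feeds the making of leukotrienes, read 7.79, 8.06 and 8.41 at 4 weeks, against 6.90, 7.20 and 7.16 at 2 weeks (adjusted p = 0.00427). Neutrophils carry all 3 transcripts. *Cxcr4*, the receptor that keeps blood cells in marrow, was higher by 0.77 (adjusted p = 0.0174), but not without 4-week DMM replicate 3 (0.0572) or without 2-week DMM replicate 2 (0.0768) or 3 (0.107). Of 25 chemokines and their receptors 3 were higher (12%) and of 60 interleukin and TNF family genes 3 were higher (5%), against 2.29% of all genes, with medians of 0.03 and 0.01. The interferon response gave 2 of 40 (5%), with *Rsad2*, an antiviral gene, at 7.54, 7.12 and 7.60 at 4 weeks, against 6.25, 6.19 and 6.49 at 2 weeks (log2 difference 1.11, SE 0.15, adjusted p = 0.00116). Of 28 genes of NF-kB and Toll-like receptor signalling 0 were called. In the fit of all 18 arrays the calls of *Il1r2*, *Alox5ap* and *Rsad2* ended (adjusted p = 0.0514, 0.16 and 0.0544).

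The paralogs of *Serpina1*, which encode alpha-1-antitrypsin, the inhibitor of neutrophil elastase, were higher at 4 weeks in the operated knee. *Serpina1b* read 10.86, 10.49 and 10.27 in the 4-week DMM arrays, against 9.52, 8.69 and 9.11 in the 2-week DMM arrays (log2 difference 1.43, SE 0.20, adjusted p = 0.00164). The unoperated knees stood above both DMM weeks, at 11.48, 11.40 and 11.26 at 4 weeks and 11.10, 11.40 and 11.34 at 2 weeks (0.10, adjusted p = 0.919). *Serpina1a* was higher by 1.38 (adjusted p = 0.00116) and *Serpina1d* by 1.38 (adjusted p = 0.00119). All 5 measured paralogs were called, at 0.78 to 1.43, but their sequences are so close that the probes do not stand for separate transcripts. *Serpina1b* was 2.69-fold higher at 4 weeks in DMM cartilage, and the test of the difference between the changes of both knees gave an unadjusted p = 0.000105 and an adjusted p = 0.813.

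A few bone genes were higher. *Omd*, the gene of osteomodulin, a keratan sulphate proteoglycan of bone, read 10.42, 10.22 and 9.86 at 4 weeks, against 9.64, 9.15 and 9.27 at 2 weeks (log2 difference 0.82, SE 0.17, adjusted p = 0.0218). *Bglap2*, an osteocalcin gene, read 11.18, 11.25 and 11.81 at 4 weeks, against 10.85, 10.36 and 10.65 at 2 weeks (log2 difference 0.79, SE 0.18, adjusted p = 0.0344). *Sost*, which encodes the Wnt inhibitor sclerostin of osteocytes, read 7.75 ± 0.34 at 4 weeks and 6.98 ± 0.14 at 2 weeks (SD, n = 3 each) (log2 difference 0.77, SE 0.16, adjusted p = 0.0273). Of 19 markers of osteoblasts and osteocytes 4 were higher (21.1%, against 2.29% of all genes) and 0 lower, with a median of 0.18. *Tnfrsf11b*, the gene of osteoprotegerin, which blocks osteoclast formation, was the fourth (0.68, adjusted p = 0.0399). *Grem1*, which encodes a secreted antagonist of bone morphogenetic proteins, read 8.98, 8.17 and 8.81 at 4 weeks, against 8.11, 7.71 and 7.57 at 2 weeks in DMM cartilage (log2 difference 0.86, SE 0.20, adjusted p = 0.0443). Each of these 5 calls was close to the threshold and ended when any of several arrays was left out. That of *Omd* ended without 4-week DMM replicate 1 (0.0847) or 2 (0.0533) or without 2-week DMM replicate 2 (0.112) or 3 (0.115). That of *Bglap2* ended without 4-week DMM replicate 3 (0.0883) or without 2-week DMM replicate 2 (0.162) or 3 (0.126). That of *Sost* ended without 4-week DMM replicate 1 (0.0833) or 2 (0.0521) or without 2-week DMM replicate 1 (0.12), 2 (0.0894) or 3 (0.0743). That of *Tnfrsf11b* ended without 4-week DMM replicate 1 (0.134) or 2 (0.091) or without 2-week DMM replicate 1 (0.0609), 2 (0.182) or 3 (0.135). That of *Grem1* ended without 4-week DMM replicate 1 (0.149) or 3 (0.126) or without 2-week DMM replicate 2 (0.162) or 3 (0.206).

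Of the cartilage matrix genes most were not called, and those that were went both ways. *Cytl1*, which encodes a small secreted protein that chondrocytes make in abundance, read 12.11, 11.65 and 11.45 in the 4-week DMM arrays, against 10.86, 10.74 and 10.90 in the 2-week DMM arrays (log2 difference 0.90, SE 0.16, adjusted p = 0.0086). *Col9a1*, the gene of a chain of type IX collagen, which coats cartilage fibrils, was lower, at 7.09, 6.64 and 6.97 at 4 weeks, against 8.83, 7.99 and 8.30 at 2 weeks (log2 difference -1.47, SE 0.19, adjusted p = 0.000869). Both calls held when any array was left out. The partner chains *Col9a2* (-0.15) and *Col9a3* (-0.14) were not called. Of the 4 *Col9a1* probes 2 were called, the other 2 lying at -0.86 (adjusted p = 0.128) and -0.31 (adjusted p = 0.24). *Matn4*, which encodes a filament-forming matrix protein, was lower, at 10.20, 10.29 and 10.63 at 4 weeks, against 11.06, 11.42 and 11.36 at 2 weeks (log2 difference -0.91, SE 0.15, adjusted p = 0.00482). It was named after its values were seen and lost its call in the fit of all 18 arrays (adjusted p = 0.17). Of 24 genes of the cartilage matrix and chondrocyte products 1 was higher and 1 lower (4.17% each, against 2.29% and 0.826% of all genes), with a median of 0.13. Of 13 chondrocyte transcription factors 0 were called. *Panx3*, the gene of a channel of hypertrophic chondrocytes and osteoblasts, was lower, at 7.08, 6.87 and 7.51 at 4 weeks, against 8.67, 8.00 and 8.24 at 2 weeks (log2 difference -1.15, SE 0.19, adjusted p = 0.00519), alone among 12 hypertrophic genes (8.33%, against 0.826% of all genes). *Col10a1*, the gene of type X collagen and their best known marker, named after its values were seen, read 10.69, 10.51 and 9.91 at 4 weeks, against 10.96, 10.52 and 10.76 at 2 weeks and was not called (-0.38, adjusted p = 0.388).

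The 15 largest decreases were of mixed kinds and included genes of fibrous matrix, matrix enzymes and major urinary proteins. *Kera*, the largest, which encodes keratocan, a keratan sulphate proteoglycan that spaces collagen fibrils, read 6.69, 6.76 and 7.47 in the 4-week DMM arrays, against 8.61, 8.96 and 8.61 in the 2-week DMM arrays (log2 difference -1.75, SE 0.19, adjusted p = 0.000208). *Ptn*, the gene of the growth factor pleiotrophin, read 6.22, 6.88 and 7.40 at 4 weeks, against 7.93, 8.68 and 8.59 at 2 weeks (log2 difference -1.57, SE 0.26, adjusted p = 0.00565). The periostin gene *Postn*, whose product is a matrix protein of loaded connective tissue, read 7.20, 8.19 and 8.56 at 4 weeks, against 9.21, 9.43 and 9.13 at 2 weeks (log2 difference -1.27, SE 0.26, adjusted p = 0.0222). *Cthrc1*, a secreted protein of matrix-forming cells, read 6.52, 6.69 and 7.21 at 4 weeks, against 7.78, 8.56 and 7.97 at 2 weeks (log2 difference -1.29, SE 0.21, adjusted p = 0.00472). For *Ptn*, *Postn* and *Cthrc1* replicate 1 was the lowest and replicate 3 the highest 4-week array. That all stayed below every 2-week array was a condition of their choice. *C1qtnf3*, which encodes a secreted relative of complement C1q, fell by 1.35 on the log2 scale (adjusted p = 0.00468), and 2 of its 3 probes were called. *Lrrc15*, the gene of a membrane protein of activated fibroblasts, read 9.64, 10.28 and 9.61 at 4 weeks, against 10.74, 10.85 and 10.95 at 2 weeks (adjusted p = 0.00632). *Postn* lost its call without 2-week DMM replicate 1 (0.0769), 2 (0.0993) or 3 (0.0776) and when the variances were fitted robustly with an intensity trend (0.179), where *Ptn* lost its call too (0.0731). In the fit of all 18 arrays *Ptn* (0.0835), *Postn* (0.238), *Cthrc1* (0.106), *C1qtnf3* (0.0591) and *Lrrc15* (0.427) were not past the threshold, whereas *Kera* kept its call there.

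In contralateral cartilage *Kera*, *Ptn*, *Postn*, *Cthrc1*, *C1qtnf3* and *Lrrc15* were not called. *Kera* read 5.62, 5.09 and 6.02 at 4 weeks and 7.23, 5.72 and 5.81 at 2 weeks there (-0.68, adjusted p = 0.727). *Lrrc15* read 7.50, 8.75 and 8.55 at 4 weeks and 8.90, 7.37 and 8.52 at 2 weeks (0.00, adjusted p = 0.999). *Postn* read 6.30, 5.87 and 6.64 at 4 weeks and 8.25, 6.37 and 7.25 at 2 weeks (-1.02, adjusted p = 0.575). The direct test of the difference between the knees gave an adjusted p of 0.896 for *Kera*.

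Collagens outside cartilage were mostly below 0, and 3 were called. *Col5a2*, the gene of a chain of the collagen that starts fibrils, read 9.91, 10.10 and 10.10 in the 4-week DMM arrays, against 10.64, 10.66 and 10.64 in the 2-week DMM arrays (log2 difference -0.61, SE 0.12, adjusted p = 0.0135). Of its 5 probes 3 were called. *Col16a1*, which encodes a fibril-associated collagen, read 8.93, 8.70 and 9.18 at 4 weeks, against 9.86, 9.68 and 9.55 at 2 weeks (log2 difference -0.76, SE 0.15, adjusted p = 0.0142). *Col13a1*, the gene of a membrane collagen, read 5.05, 4.97 and 5.28 at 4 weeks, against 6.47, 5.42 and 6.26 at 2 weeks (log2 difference -0.95, SE 0.22, adjusted p = 0.0429). All these *Col13a1* values were below the median of the arrays, toward the end where signal and background cannot be told apart. Of 25 such chains 3 were lower (12%, against 0.826% of all genes), 0 were higher, and 22 had a difference below 0, with a median of -0.40. *Col1a1*, the gene of the main chain of type I collagen, was not called at -0.00, nor *Col3a1* at -0.58. The enzymes that fold and modify collagen gave 2 lower of 24 (8.33%), *Serpinh1*, which encodes a collagen chaperone (-0.67, adjusted p = 0.037), and *Plod1*, which encodes a lysyl hydroxylase (-0.52, adjusted p = 0.0439). The dimmer *Serpinh1* probe was not called (-0.41, adjusted p = 0.198). Without 2-week DMM replicate 1 the count of collagens called was 0, and without 2-week DMM replicate 2 or 3 or 4-week DMM replicate 1 it was 1. The call of *Col5a2* ended without 4-week DMM replicate 1 (0.0553) or without 2-week DMM replicate 1 (0.051), 2 (0.0632) or 3 (0.0672). That of *Col16a1* ended without 2-week DMM replicate 1 (0.0741) or 2 (0.0553). That of *Col13a1* ended without 4-week DMM replicate 1 (0.119), 2 (0.101) or 3 (0.0572) or without 2-week DMM replicate 1 (0.161) or 3 (0.195). *Serpinh1* lost its call without 4-week DMM replicate 1 (0.116) or without 2-week DMM replicate 1 (0.135) or 3 (0.173) and *Plod1* lost its own without 4-week DMM replicate 1 (0.102), 2 (0.0728) or 3 (0.103) or without 2-week DMM replicate 1 (0.0517), 2 (0.196) or 3 (0.168).

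The fibroblast and synovium markers were mostly below 0 as well. Of 21 measured, 3 were lower (*Cthrc1*, *Postn* and *Lrrc15*, or 14.3%, against 0.826% of all genes), 0 were higher and 19 had a difference below 0, with a median of -0.41. Their mean level was 8.76, 9.21 and 9.13 in the 4-week DMM arrays, against 9.35, 9.57 and 9.42 in the 2-week DMM arrays, so that the weeks did not overlap, and 4-week DMM replicate 1 was lowest. In contralateral cartilage it was 7.99, 8.46 and 8.61 at 4 weeks and 8.76, 8.06 and 8.58 at 2 weeks, with a median change of -0.10. Other lists hold 9 of these 21 genes, and the part of synovial or fibrous tissue in the lower matrix genes was not tested.

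Of 20 matricellular genes 3 were lower (15%) and of 12 small leucine-rich proteoglycans 2 were lower (16.7%), against 0.826% of all genes. In each list 1 was higher (5% and 8.33%, against 2.29% of all genes). *Thbs2*, which encodes a thrombospondin that restrains vessel growth, was lower, at 7.68, 8.15 and 8.39 at 4 weeks, against 8.68, 9.36 and 8.85 at 2 weeks (log2 difference -0.89, SE 0.20, adjusted p = 0.0352). Its relative *Thbs1*, which encodes a protein stored in platelets, was higher, at 7.42, 7.07 and 7.20 at 4 weeks, against 6.53, 6.67 and 6.34 at 2 weeks (log2 difference 0.71, SE 0.14, adjusted p = 0.0142). *Aspn*, the gene of asporin, which binds collagen and TGF-beta, was lower, at 7.54, 8.17 and 7.84 at 4 weeks, against 8.49, 8.66 and 8.73 at 2 weeks (log2 difference -0.78, SE 0.16, adjusted p = 0.0193). The tenascin gene *Tnn* read 7.43, 8.09 and 8.30 at 4 weeks, against 8.75, 8.96 and 8.57 at 2 weeks (log2 difference -0.82, SE 0.20, adjusted p = 0.0486). Its other probe was not called (-0.48, adjusted p = 0.303). *Tnc*, which encodes tenascin C, read 10.05, 10.56 and 10.86 at 4 weeks, against 11.01, 11.08 and 11.10 at 2 weeks, with no overlap between the weeks, but was not called at its brightest probe (-0.58, adjusted p = 0.129). The dimmest of its 7 probes was called (-0.59, adjusted p = 0.0415), and the brightest was called without 4-week DMM replicate 3 (-0.76, adjusted p = 0.0328). *Fmod*, the gene of fibromodulin, which steers fibril assembly, read 9.61, 10.06 and 9.43 at 4 weeks, against 9.84, 9.99 and 9.84 at 2 weeks (-0.19, adjusted p = 0.633) and overlapped between the weeks. The call of *Thbs2* ended without 4-week DMM replicate 1 (0.116) or 2 (0.055) or without 2-week DMM replicate 2 (0.152) or 3 (0.103). That of *Thbs1* ended without 4-week DMM replicate 1 (0.0594) or without 2-week DMM replicate 1 (0.0542) or 3 (0.0941). That of *Aspn* ended without 4-week DMM replicate 1 (0.0654) or 3 (0.0514) or without 2-week DMM replicate 2 (0.0792) or 3 (0.109). That of *Tnn* ended without 4-week DMM replicate 1 (0.106) or 2 (0.0556) or without 2-week DMM replicate 1 (0.136), 2 (0.193) or 3 (0.0994).

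**Figure D4:**
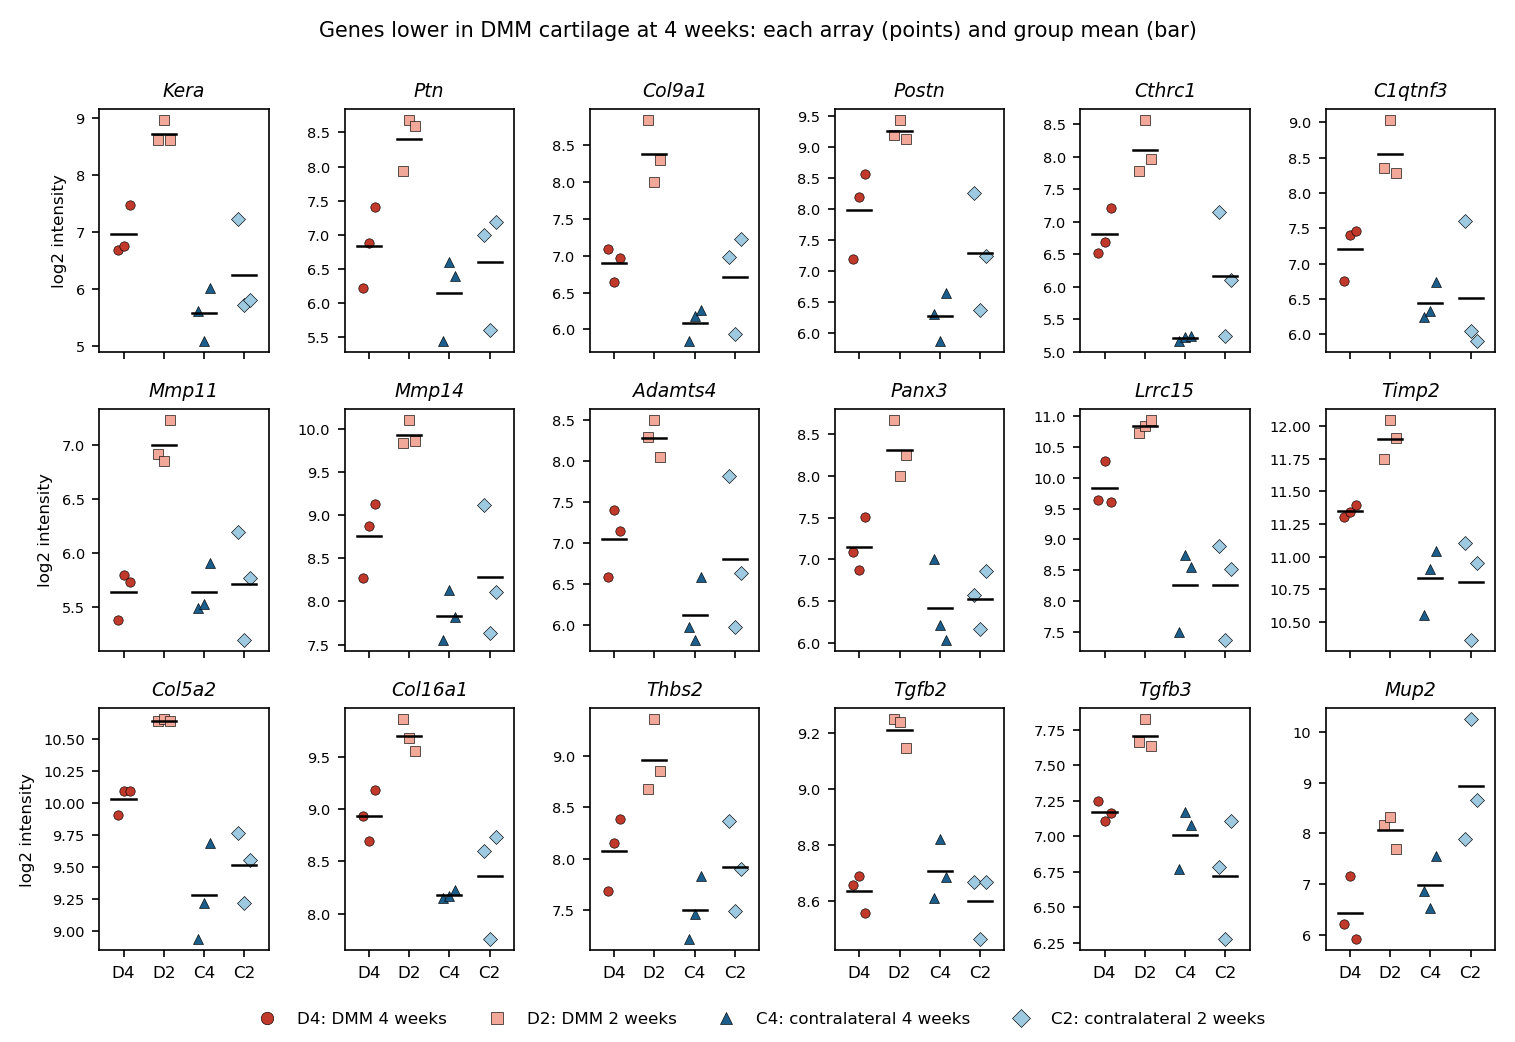
Log2 intensities of 18 genes that were lower in DMM cartilage at 4 weeks, in the 3 arrays of DMM 4 weeks (D4), DMM 2 weeks (D2), contralateral 4 weeks (C4) and contralateral 2 weeks (C2), with a bar at each group mean and its own vertical axis for each gene. All D4 arrays stand below the D2 arrays, which the choice of called genes largely fixes, with *Kera* at 6.69 to 7.47 against 8.61 to 8.96.

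The matrix-degrading enzymes were mostly lower where they were called. *Mmp14*, which encodes a membrane-bound collagenase that also activates other MMPs, read 8.27, 8.88 and 9.13 in the 4-week DMM arrays, against 9.84, 10.11 and 9.86 in the 2-week DMM arrays (log2 difference -1.18, SE 0.19, adjusted p = 0.0044). *Mmp11*, the gene of stromelysin 3, read 5.38, 5.79 and 5.74 at 4 weeks, against 6.91, 6.85 and 7.23 at 2 weeks (log2 difference -1.36, SE 0.15, adjusted p = 0.000208). Its 4-week values were below the median of the arrays. *Adamts4*, which encodes an aggrecanase, read 6.58, 7.40 and 7.15 at 4 weeks, against 8.30, 8.51 and 8.05 at 2 weeks (log2 difference -1.24, SE 0.19, adjusted p = 0.00358). In contralateral cartilage *Mmp11* stood at 5.49, 5.53 and 5.91 at 4 weeks and 6.19, 5.20 and 5.77 at 2 weeks and was not called (-0.07, adjusted p = 0.968). Of 13 MMP genes 2 were lower (15.4%, against 0.826% of all genes) and 1 was higher (7.69%, against 2.29%), the neutrophil collagenase *Mmp8* given above. Of 23 ADAM and ADAMTS genes 3 were lower (13%), with *Adamts12* at -0.79 (adjusted p = 0.0241) and *Adamts1*, an enzyme that cuts versican and aggrecan, at -0.54 (adjusted p = 0.0443). The dimmer *Adamts1* probes were not called (-0.25, adjusted p = 0.61, and -0.16, adjusted p = 0.581). *Mmp3*, the gene of stromelysin 1, read 8.82, 9.60 and 9.65 at 4 weeks, against 9.79, 9.42 and 9.63 at 2 weeks and was not called (-0.25, adjusted p = 0.61). *Mmp13*, which encodes the main collagenase of cartilage and was named after its values were seen, read 11.08, 11.33 and 11.57 at 4 weeks, against 11.85, 11.71 and 11.95 at 2 weeks at its brightest probe, with no overlap but no call (-0.51, adjusted p = 0.0979). Of its other probes the dimmest was called (-1.14, adjusted p = 0.0153), while the brighter of them was not (-0.11, adjusted p = 0.723). *Timp2*, an inhibitor of these enzymes and among the brightest genes called, was lower as well, at 11.30, 11.34 and 11.40 at 4 weeks, against 11.75, 12.05 and 11.91 at 2 weeks (log2 difference -0.55, SE 0.12, adjusted p = 0.0318). In the fit of all 18 arrays *Mmp14* and *Adamts4* lost their calls (adjusted p = 0.0532 and 0.0992), and *Mmp11* kept its call. The call of *Timp2* ended without 4-week DMM replicate 1 (0.0953), 2 (0.0674) or 3 (0.0569) or without 2-week DMM replicate 2 (0.163) or 3 (0.132). That of *Adamts12* ended without 4-week DMM replicate 1 (0.0916) or 2 (0.0521) or without 2-week DMM replicate 2 (0.1) or 3 (0.0712). That of *Adamts1* ended without 4-week DMM replicate 1 (0.0798) or 3 (0.129) or without 2-week DMM replicate 1 (0.0759), 2 (0.19) or 3 (0.159).

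TGF-beta ligands drive the making of matrix and keep chondrocytes from hypertrophy. *Tgfb2* read 8.66, 8.69 and 8.56 in the 4-week DMM arrays, against 9.25, 9.24 and 9.15 in the 2-week DMM arrays (log2 difference -0.58, SE 0.11, adjusted p = 0.0175), and *Tgfb3* read 7.25, 7.10 and 7.16 at 4 weeks, against 7.66, 7.83 and 7.63 at 2 weeks (log2 difference -0.54, SE 0.12, adjusted p = 0.0323). The spread within each week was under 0.21 for both. *Tgfb1* was not called (-0.38), nor were the receptor genes *Tgfbr1* (-0.09) and *Tgfbr2* (-0.25). Of 30 genes of TGF-beta and activin signalling 3 were lower (10%, against 0.826% of all genes) and 1 was higher (3.33%, against 2.29%). The higher gene was *Thbs1*, whose product can activate TGF-beta. *Tgfbi*, a target of the pathway that encodes an adhesion protein, was the third lower gene (-0.57, adjusted p = 0.0352), and the targets *Ccn2* (0.01) and *Smad7* (-0.11) were not called. The dimmer *Tgfbi* probe was not called (-0.48, adjusted p = 0.14). Of the calls, that of *Tgfb2* ended without 4-week DMM replicate 3 (0.0543) or without 2-week DMM replicate 1 (0.0711), 2 (0.0817) or 3 (0.0614). That of *Tgfb3* ended without 4-week DMM replicate 1 (0.0588), 2 (0.0819) or 3 (0.0745) or without 2-week DMM replicate 1 (0.081), 2 (0.163) or 3 (0.0945). That of *Tgfbi* ended without 4-week DMM replicate 1 (0.118) or 2 (0.0612) or without 2-week DMM replicate 1 (0.0883), 2 (0.148) or 3 (0.136).

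Some genes of the remaining pathway lists were lower. *Igfbp4*, which encodes a binding protein that holds back insulin-like growth factors, was lower, at 8.80, 9.28 and 9.23 at 4 weeks, against 9.63, 10.33 and 9.81 at 2 weeks (log2 difference -0.82, SE 0.19, adjusted p = 0.0359). It was the only gene called among 18 of that axis (5.56% lower, against 0.826% of all genes). Its other probe was not called (-0.46, adjusted p = 0.24). *Dkk3*, a secreted relative of the Wnt inhibitors, was lower, at 8.79, 9.11 and 8.93 at 4 weeks, against 9.60, 9.66 and 9.45 at 2 weeks (log2 difference -0.63, SE 0.13, adjusted p = 0.0202). Among 55 genes of Wnt signalling it was the 1 lower and *Sost* the 1 higher, with a median of -0.04. These are 1.82% each, against 0.826% lower and 2.29% higher of all genes. The dimmest *Dkk3* probe was not called (-0.25, adjusted p = 0.502). Of 10 laminin and nidogen genes of the basement membrane 2 were lower (20%, against 0.826% of all genes), *Nid2* (-0.75, adjusted p = 0.0232) and *Lama2* (-0.65, adjusted p = 0.00762), although another probe of *Lama2* stood at 0.42. Of 21 endothelial markers 1 was lower (4.76%, against 0.826% of all genes), *Tie1*, a receptor gene of vessels (-0.49, adjusted p = 0.0466). Every DMM array of *Tie1* in these weeks read below the median of the arrays. The calls ended for *Igfbp4* without 4-week DMM replicate 1 (0.125) or 3 (0.0548) or without 2-week DMM replicate 2 (0.147) or 3 (0.101), for *Dkk3* without 4-week DMM replicate 1 (0.0789) or 3 (0.052) or without 2-week DMM replicate 1 (0.0776), 2 (0.104) or 3 (0.0526), for *Nid2* without 4-week DMM replicate 1 (0.0888) or without 2-week DMM replicate 1 (0.105) or 3 (0.125), for *Lama2* without 2-week DMM replicate 3 (0.0514) and for *Tie1* without 4-week DMM replicate 1 (0.104), 2 (0.066) or 3 (0.117) or without 2-week DMM replicate 1 (0.0802), 2 (0.171) or 3 (0.194). Some lists held no called gene, among them 57 cytosolic ribosomal proteins (median 0.10), 27 hypoxia genes (0.06), 30 heat shock proteins (0.00) and 33 apoptosis genes (-0.02). Adipocyte markers belonged to these too. Their mean level was 6.29, 7.52 and 6.50 at 4 weeks, against 6.57, 6.61 and 6.43 at 2 weeks in DMM cartilage, and 6.44, 6.67 and 6.86 at 4 weeks and 7.29, 8.46 and 6.74 at 2 weeks in contralateral cartilage.

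The major urinary protein genes *Mup2*, *Mup6* and *Mup20*, a liver family of near-identical genes, were lower in DMM cartilage. *Mup2* read 6.22, 7.16 and 5.90 in the 4-week DMM arrays, against 8.17, 8.32 and 7.69 in the 2-week DMM arrays (log2 difference -1.63, SE 0.27, adjusted p = 0.00473). In contralateral cartilage it read 6.87, 6.53 and 7.55 at 4 weeks and 7.88, 10.26 and 8.66 at 2 weeks (-1.95, adjusted p = 0.262). *Mup6* was the only probe called lower there (-1.72, adjusted p = 0.0446). In the fit of all 18 arrays none of the 3 was called in DMM cartilage (adjusted p = 0.428, 0.229 and 0.453). *Mup20* also lost its call without 4-week DMM replicate 1 (0.134) or 3 (0.122) or without 2-week DMM replicate 1 (0.145) or 2 (0.167).

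The same weeks of the unoperated knee gave fewer calls. Between 4 and 2 weeks 34 of 22999 probes were called in contralateral cartilage (0.148%), 33 higher and 1 lower, with 1686 at an unadjusted p under 0.05. Of the 34 probes 23 were called in DMM cartilage in the same direction and 0 in the opposite. The median residual SD was 0.199 there and 0.159 in DMM cartilage. Without 4-week contralateral replicate 1 no probe was called, and without replicate 2 of that group 70 were. Of the 263 genes higher in DMM cartilage 237 (90.1%) had a contralateral difference above 0, as had 51.0% of all genes, with a median of 0.45 against 0.93 in DMM cartilage, where the genes were chosen. Of the 95 lower genes 66 (69.5%) had a contralateral difference below 0, with a median of -0.14 against -0.69.

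**Figure D5:**
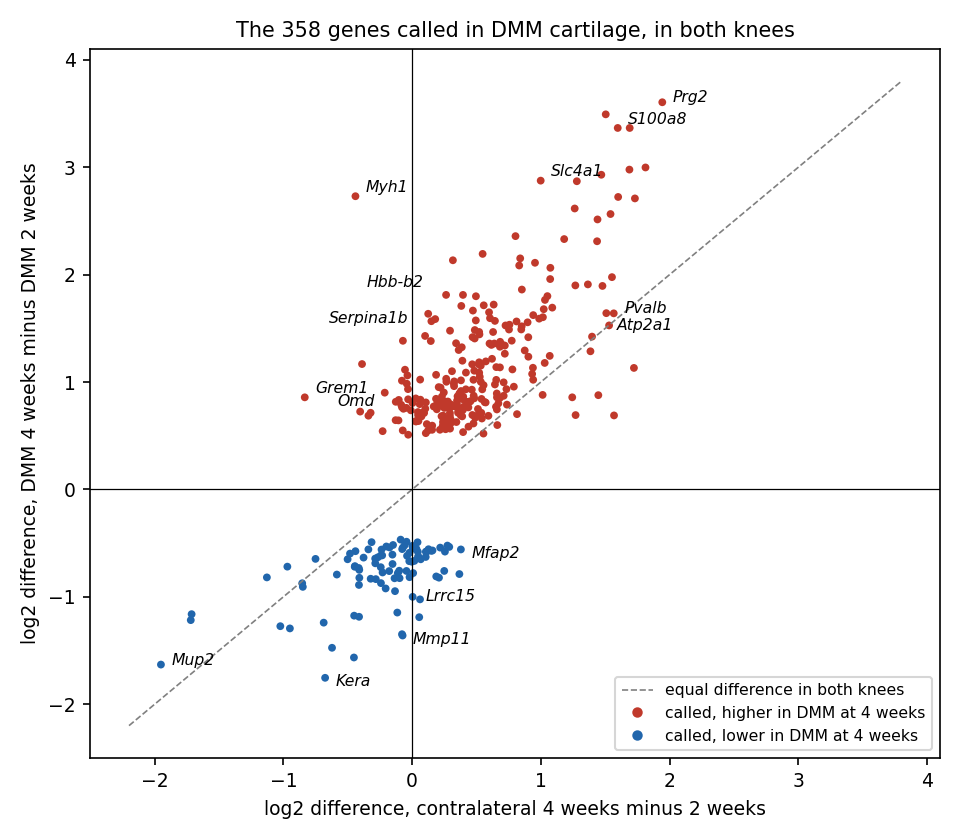
The 358 genes called in DMM cartilage, with the log2 difference between 4 and 2 weeks in contralateral cartilage on the horizontal axis and that in DMM cartilage on the vertical axis, in units of log2 intensity, red where higher and blue where lower in DMM cartilage at 4 weeks. Most red points lie to the right of 0, with *Prg2* at 1.94 and 3.61, whereas *Grem1* (-0.83 and 0.86) and *Myh1* (-0.44 and 2.73) lie to the left, and *Mfap2* (0.38 and -0.56) is a blue point to the right.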

How the data were processed

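RNA of micro-dissected medial tibial plateau cartilage, 1 pool of 8 mice per array, was hybridised to Illumina mouse bead arrays. The authors selected probes and quantile-normalised all 18 arrays with lumi 2.8.0 in R 2.15.0, and the deposited log2 values were used as they stood. Columns of unnormalised signals and detection p-values (36) could not be matched to samples by name and were not used, and the BeadChip of each array is not given in the sources used here. The 3 arrays of each week were compared with limma 3.58.1 in R 4.3.3 (array weights and blocks with statmod 1.5.0), over 22999 probes, of which 18998 carried 1 gene symbol in the platform annotation. For each gene the probe brightest over the 18 arrays was read. The code was tested on simulated data. With 3 against 3 arrays an exact two-sided permutation test cannot go below p = 0.1.

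Named were the 15 largest increases and decreases with no overlap between the weeks, up to 3 called members per direction of 68 gene lists, and chondrocyte markers and genes measured by PCR in the study. *Mmp13*, *Col10a1*, *S100a9*, *Elane*, *Hba-a1*, *Hbb-bt*, *Myb*, *Nup210* and *Matn4*, as well as members not past the threshold, were added after values were seen. The members and lists were chosen with earlier results of these data known. Promoter sequences came from RefSeq (GRCm38.p6) and had entries for 292 of the 358 called genes. Alternatives were other normalisations, variance models, probe rules, a replicate block, a fit of all 18 arrays and leaving out each array. Figures were drawn with Python 3.11.15 and matplotlib 3.10.9.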

Additional observations from a re-analysis of the deposited data

Results flagged for a closer look

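*Mfap2*, which encodes a microfibril protein, and *Grem1* stood on opposite sides in the knees, with no overlap of the arrays of the weeks in either knee. *Mfap2* was lower in DMM cartilage at 4 weeks (log2 difference -0.56) and stood at 0.38 in contralateral cartilage, so that the differences of the knees were -0.94 apart (adjusted p = 0.896 in limma). Its call in DMM cartilage ended without 4-week DMM replicate 1 (0.146) or 3 (0.0599) or without 2-week DMM replicate 1 (0.156), 2 (0.151) or 3 (0.127). *Grem1* was higher in DMM cartilage (0.86) and stood at -0.83 in contralateral cartilage, 1.69 apart (adjusted p = 0.813). Its call ended without 4-week DMM replicate 1 (0.149) or 3 (0.126) or without 2-week DMM replicate 2 (0.162) or 3 (0.206). Neither difference between the knees passed the threshold, and the values in parentheses after the arrays are adjusted p-values.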

How the results depend on the processing

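Of 118 called named genes 35 kept their direction and their side of the threshold in every alternative run gene by gene, 83 lost the threshold in at least 1 and 0 reversed. The fit of all 18 arrays ended 73 of these calls and leaving out single arrays ended 53. In DMM cartilage, against 585 probes (412 higher and 173 lower), 203 were called in the fit of all 18 arrays (178 and 25), 325 genes when all probes of a gene were averaged (241 and 84), where fewer features were tested, and 2 without moderated variances (1 and 1), where 0 of the 358 genes called at their brightest probe kept their call. Leaving out each array gave 313 to 600 probes, 262 to 433 higher and 48 to 171 lower. The total was 313 without 2-week DMM replicate 3 and 334 without 2-week DMM replicate 2, and the lower calls were 101 without 2-week DMM replicate 1 and 85 without 4-week DMM replicate 1. Other alternatives gave 454 to 711 probes. In contralateral cartilage the 34 calls became 52 with variances fitted robustly with an intensity trend, 1 in the fit of all 18 arrays and 0 to 70 without single arrays. The difference between the knees gave 0 probes in every alternative run. The replicate numbers did not pair the samples (correlations of same-numbered deviations 0.094, 0.054 and -0.01), and with the number as a block 647 probes were called in DMM cartilage, 18 in contralateral cartilage and 0 for the difference between the knees. Except where an alternative's construction shows it, the cause was not tested. Signal over background could not be read, which limits the dimmest genes.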
